A study of Mus musculus with 60 samples.

Results

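The Hox cluster genes are the protein-coding mouse genes whose symbol is Hox, a cluster letter from a to d and a number. They were taken from a RefSeq table of the GRCm38.p6 assembly, which held 39 of them among 21887 protein-coding genes. The Hoxa cluster on chromosome 6 has 11 members, Hoxb on chromosome 11 has 10, and Hoxc on chromosome 15 and Hoxd on chromosome 2 have 9 each. Chromatin was measured in dorsal root ganglia, which hold the cell bodies of sensory neurons with their glia, from lumbar levels L4 to L6 of C57BL/6 mice aged 6 to 8 weeks, 24 hours after surgery. Mice had a cut of the sciatic nerve (SNA), a sham operation on that nerve (Sham), a cut of the dorsal columns, the ascending sensory tracts of the cord (DCA), or a laminectomy (Lam), which opens the spine without an axotomy. The labels list no transgene or drug. H3K9ac and H3K27ac, marks of active promoters and enhancers, and H3K27me3, the mark set by Polycomb repressive complex 2, were mapped by chromatin immunoprecipitation on pools of 10 mice, 2 samples for each mark and surgery. Open chromatin was mapped by ATAC-seq on single mice, 3 for each surgery. The authors deposited 1 peak list for each of the 4 assays and 4 surgeries, 16 in all, with the replicates of a condition pooled. A list is therefore a single measurement, no difference between lists has a replicate error, and no test between surgeries was possible.

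Hox genes encode homeodomain transcription factors that give cells their position along the head-to-tail axis. In each cluster the order of the genes along the chromosome follows the order of their expression along the body. Low paralogue groups act towards the hindbrain and neck, groups 9 and 10 around the lumbar region, and groups 11 to 13 in the sacrum, tail and distal limb. Once set in the embryo, the pattern is held in adult cells by trithorax proteins, which keep expressed genes active, and Polycomb proteins, which cover silent ones with H3K27me3. The tissue was bulk ganglion, so a cell type that carries a mark in fewer cells and one that carries it at a lower level in each cell cannot be told apart.

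The RefSeq promoter table (GRCm38.p6) holds promoters of Hoxa10 and Hoxa11 and of Hoxd3 and Hoxd4. These are printed because Hoxa10 and Hoxd3 were the highest members of their clusters with start-site peaks of both acetyl marks in any list. The Hoxa11 and Hoxd4 promoters had no acetyl base in any list. Hoxd4 lies inside the Hoxd3 gene model, so the Hoxd pair follows group number and is not a border along the chromosome. Each promoter runs 5′ to 3′ on the coding strand from 250 bases before to 50 after the start site. Capitals mark matches, on either strand and merged where they overlap, to 6 motifs. These are TATAAA, which TATA-binding protein recognises, CCAAT, which the factor NF-Y recognises, and GGGCGG, a site of Sp1. The others are TGATNNAT, a core of joint PBX and HOX sites, AGGTCA, a site of nuclear receptors, and the core motif of CTCF. Hoxa10 has 2 start sites in the table, and the one nearer the acetylated genes is given first.
Hoxa10, chr6:52234890-52235189, minus strand: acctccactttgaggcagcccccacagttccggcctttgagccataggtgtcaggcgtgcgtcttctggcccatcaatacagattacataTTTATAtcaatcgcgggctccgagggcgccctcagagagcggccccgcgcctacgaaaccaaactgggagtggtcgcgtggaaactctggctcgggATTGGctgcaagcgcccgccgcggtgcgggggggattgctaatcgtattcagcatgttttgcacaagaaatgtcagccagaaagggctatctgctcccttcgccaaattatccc
Hoxa10, chr6:52240805-52241104, minus strand: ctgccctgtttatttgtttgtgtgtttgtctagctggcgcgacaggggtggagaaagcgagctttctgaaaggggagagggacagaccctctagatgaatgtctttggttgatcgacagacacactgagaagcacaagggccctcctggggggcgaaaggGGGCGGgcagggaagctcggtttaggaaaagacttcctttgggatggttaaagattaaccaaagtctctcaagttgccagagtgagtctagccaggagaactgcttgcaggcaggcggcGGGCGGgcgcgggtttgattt
Hoxa11, chr6:52245761-52246060, minus strand: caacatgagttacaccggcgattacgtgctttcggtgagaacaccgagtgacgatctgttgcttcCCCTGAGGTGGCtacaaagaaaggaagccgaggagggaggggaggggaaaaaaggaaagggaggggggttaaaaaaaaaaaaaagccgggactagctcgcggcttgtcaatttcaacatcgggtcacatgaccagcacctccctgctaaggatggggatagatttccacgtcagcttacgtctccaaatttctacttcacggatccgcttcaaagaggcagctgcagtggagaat
Hoxd3, chr2:74711743-74712042, plus strand: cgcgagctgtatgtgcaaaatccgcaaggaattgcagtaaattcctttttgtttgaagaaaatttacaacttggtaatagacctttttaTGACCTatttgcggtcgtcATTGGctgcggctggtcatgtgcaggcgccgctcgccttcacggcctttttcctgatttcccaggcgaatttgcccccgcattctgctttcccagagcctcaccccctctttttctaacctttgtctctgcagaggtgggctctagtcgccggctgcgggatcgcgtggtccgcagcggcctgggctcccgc
Hoxd4, chr2:74721728-74722027, plus strand: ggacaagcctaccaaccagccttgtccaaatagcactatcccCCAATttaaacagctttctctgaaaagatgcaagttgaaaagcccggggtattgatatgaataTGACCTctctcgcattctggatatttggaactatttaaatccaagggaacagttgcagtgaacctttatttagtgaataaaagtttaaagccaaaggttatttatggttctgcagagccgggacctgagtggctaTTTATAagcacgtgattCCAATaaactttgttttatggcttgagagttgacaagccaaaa

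Among these promoters, the Hoxa11 promoter alone holds the CTCF core, and it is the 1 Hox promoter of 24 in the table with a match, against 3.43% of all 32851 promoters. AGGTCA was found in both Hoxd promoters, in 7 of the 24 Hox promoters and in 16.3% of all. CCAAT occurred in 15 of 24 against 37.4%, TATAAA in 4 against 13.6%, GGGCGG in 10 against 35.7% and TGATNNAT in 4 against 8.85%. Hox promoters had a median of 14 CG dinucleotides in the 300 bases, and all promoters 7. Hoxd4 had 4, the Hoxd3 promoter 20, and the Hoxa promoters printed here between 12 and 21. These matches describe letters and are not shown to be bound sites.

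The clusters also carry microRNA genes, whose mature sequences are printed because they share seeds across clusters that differ in their marks. The 5p arms are given from RefSeq, with the seed in capitals. Their hosts were chosen for their place in the clusters after the files were read.
mmu-miR-196b-5p (Hoxa, chr6:52230129-52230150, minus strand): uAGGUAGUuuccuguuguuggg
mmu-miR-196a-5p (Hoxb, chr11:96265187-96265208, and Hoxc, chr15:102973365-102973386, both plus strand): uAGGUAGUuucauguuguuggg
mmu-miR-10a-5p (Hoxb, chr11:96317186-96317208, plus strand): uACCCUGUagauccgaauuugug
mmu-miR-10b-5p (Hoxd, chr2:74726074-74726096, plus strand): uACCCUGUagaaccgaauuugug

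H3K9ac and H3K27ac peaks sat at start sites of paralogue groups 1 to 10 of Hoxa, Hoxb and Hoxc, at few Hoxd genes and at no gene of groups 11 to 13. A gene was counted when a peak lay within 1 kb of its start site. The start came from the promoter table for 22 members. For the other 17, either end of the gene served. Of all 21887 protein-coding genes, 17492 had a start in the promoter table, a larger share than among the members. More sequence is searched where either end serves, so the shares over all genes are not fully matched to those of the members. H3K9ac peaks were at 17 of 39 members in Sham, 23 after SNA, 22 in Lam and 26 after DCA. Over all protein-coding genes the shares were 50.1%, 51.4%, 51.1% and 59.9%, so the Hox genes as a group were near the background. All 4 H3K9ac lists had a peak at 17 members, against 43.2% of all genes, and none had one at 12. H3K27ac peaks were at 23, 24, 24 and 19 members in the same order of surgeries, against 40.4%, 51.6%, 51.3% and 43.3% of all genes. All 4 H3K27ac lists had a peak at 19 members, against 32.7% of all genes.

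The members differed by their place. No gene of groups 11 to 13 (Hoxa11, Hoxa13, Hoxb13, Hoxc11, Hoxc12, Hoxc13, Hoxd11, Hoxd12 and Hoxd13) had a start-site peak of either acetyl mark in any of the 8 acetylation lists. H3K9ac covered 0% of their territories, the bases nearer to them than to another member, in all 4 lists. H3K27ac covered 1.58% of those of Hoxc in Sham (2 peaks), 0.656% of that of Hoxb13 in DCA (1 peak), and 0% otherwise. With a 5 kb window the H3K27ac list of Sham reached Hoxc12 and Hoxc13, and no other list reached a gene of these groups. In groups 4 to 8 of Hoxa, Hoxb and Hoxc, H3K9ac peaks were at 9 of 13 start sites in Sham, 11 after SNA, 12 in Lam and 13 after DCA. H3K27ac peaks were at 12, 12, 12 and 11 of them. In Hoxd, 0, 1, 1 and 3 of 9 members had an H3K9ac peak, and 2, 2, 2 and 1 had an H3K27ac peak. The Hoxd genes with either mark in any list were Hoxd3, Hoxd8 and Hoxd9.

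**Figure D1:**
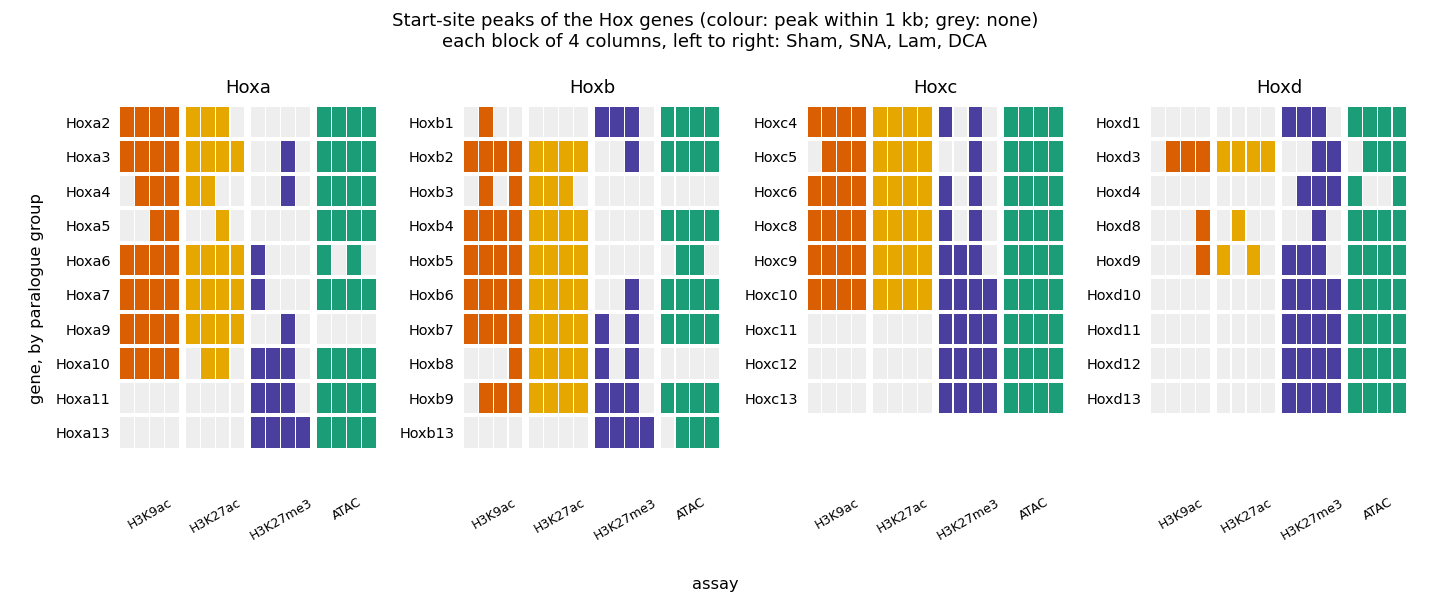
Start-site peaks of 38 Hox genes, 1 row per gene ordered by paralogue group, with 4 columns per assay for Sham, SNA, Lam and DCA. A coloured cell stands for a peak within 1 kb. The orange and yellow cells end between groups 10 and 11 in Hoxa and Hoxc, and all 9 genes of groups 11 to 13 have H3K27me3 cells (purple) in Sham, SNA and Lam.

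Both acetyl marks together were found at 16 members in Sham, 22 after SNA, 21 in Lam and 19 after DCA. These are 41.0%, 56.4%, 53.8% and 48.7% of the members, against 36.3%, 47.0%, 46.3% and 42.6% of all genes. In Hoxc the highest such group was 10 in all 4 lists (Hoxc10), and Hoxc11, 10 kb further on, had neither mark. In Hoxa the border lay at Hoxa9 in Sham and DCA and at Hoxa10 in SNA and Lam, with Hoxa11 free of both marks. In Hoxb it lay at Hoxb7 in Sham and at Hoxb9 in the other lists. By either acetyl mark, the highest members of these clusters were Hoxa10, Hoxb9 and Hoxc10 in every list. Hoxa10 had an H3K9ac start-site peak in all 4 lists, and Hoxb8 and Hoxb9 had H3K27ac in Sham. In Hoxd, Hoxd3 was the single member with both marks, in SNA, Lam and DCA, and no member had both in Sham. Hoxb1 and Hoxd1, at the other end of their clusters, also lacked H3K27ac in all 4 lists, and their single acetyl peak was H3K9ac at Hoxb1 in SNA.

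At the border pair of Hoxa, the first Hoxa10 promoter printed above was covered by H3K27ac peaks for 293 of its 300 bases in Lam and 86 in SNA, and for 0 in Sham and DCA. H3K9ac peaks covered 44 of them in DCA and 0 in the other lists. The H3K9ac start-site peaks of Hoxa10 in Sham, SNA and Lam lay outside the printed bases. An H3K27me3 peak covered all 300 bases of the first promoter in Sham and 0 in the other lists. The second Hoxa10 promoter had no acetyl base in any list and 220, 146, 300 and 0 H3K27me3 bases in Sham, SNA, Lam and DCA. The Hoxa11 promoter had no acetyl base and was covered by H3K27me3 over all 300 bases in Sham, SNA and Lam and 0 in DCA. ATAC peaks reached 78, 113, 0 and 45 of its bases in the same order. In Hoxd, H3K27ac covered 61 bases of the Hoxd3 promoter in Sham, 0 after SNA, 89 in Lam and 63 after DCA. H3K9ac covered 47 in Lam, 150 in DCA and 0 in Sham and SNA, and H3K27me3 covered none of it in any list. The Hoxd4 promoter had no acetyl base in any list and was covered by H3K27me3 over all 300 bases in SNA, Lam and DCA and over 0 in Sham.

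The strongest H3K9ac peak of Hoxc lay in Hoxc6 in every list, a gene of the thoracic groups. Its fold enrichment, the authors' ratio of the peak over background, was 8.03 in Sham, 8.27 after SNA, 7.23 in Lam and 10.2 after DCA. By −log10 p it ranked 31 of 50332 peaks in Sham, 64 of 74652 in SNA, 45 of 50667 in Lam and 16 of 89647 in DCA, so it stood among the highest 0.1% of each list. In Hoxb the strongest H3K9ac peak was at Hoxb2, a hindbrain gene, in all 4 lists, with ranks of 192, 1645, 927 and 38. In Hoxa it was at the upstream end of the long Hoxa3 gene model in SNA and Lam, and within Hoxa4, which lies inside that gene model, in DCA, with folds of 8.9, 6.19 and 7.48. The strongest H3K9ac peaks of Hoxd were weaker, with folds of 3.44, 4.74, 2.73 and 4.83 and places within the highest 41.6%, 14.8%, 80.2% and 10.7% of their lists. In DCA that peak was at Hoxd9, whose −log10 q was 12.5.

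The strongest H3K27ac peak had a higher fold in Hoxa than in the other clusters in all 4 lists. In Hoxa it had folds of 13.9 in Sham, 10.9 after SNA, 13.3 in Lam and 13.2 after DCA, inside Hoxa3 in Sham and DCA and between genes in SNA and Lam. The strongest of Hoxd in Sham and Lam fell on overlapping intervals just upstream of Hoxd3, with folds of 9.8 and 6.54. In DCA the strongest lay inside Hoxd3 at a fold of 6.62, and in SNA it lay at Hoxd8 at 4.62. Hoxd3 was the 1 member of the cluster with a start-site H3K27ac peak in all 4 lists, at folds of 9.8, 3.93, 6.54 and 5.79 in Sham, SNA, Lam and DCA.

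Between groups 4 to 8 and groups 11 to 13, H3K27me3 was arranged the other way round. A start-site peak was found at 25 members in Sham, 18 after SNA, 32 in Lam and 12 after DCA, against 22.2%, 16.9%, 25.1% and 8.46% of all genes. As shares these counts were 64.1%, 46.2%, 82.1% and 30.8% of the 39 members, above the background in each list. All 4 lists had a peak at 10 members, against 3.4% of all genes. That count rests on peaks of low −log10 q. It was 1 with lists of equal size, 0 with q of at most 0.05, and, chosen after seeing the data, 17 without the DCA list. In groups 11 to 13 the counts were 9, 9, 9 and 8 of 9, the exception being Hoxa11 in DCA. In groups 4 to 8 of Hoxa, Hoxb and Hoxc they were 7, 0, 8 and 0 of 13, and in groups 1 to 3 they were 2, 1, 4 and 0 of 6. Groups 9 to 10 of these clusters had no such opposition in Sham, SNA and Lam. There H3K27me3 was at 4, 4, 5 and 1 of 5 start sites, and H3K9ac at 4, 5, 5 and 5. Members with H3K27me3 and neither acetyl mark numbered 12 in Sham, 13 after SNA, 14 in Lam and 10 after DCA. These are 30.8%, 33.3%, 35.9% and 25.6% of the members, against 14.4%, 13.4%, 17.0% and 6.63% of all genes. The marks also met at the same start sites: 9, 4, 15 and 2 members had both acetyl marks and H3K27me3 at the start, among them Hoxc10 in every list. The shares were 23.1%, 10.3%, 38.5% and 5.13%, against 3.97%, 2.03%, 5.24% and 0.745% of all genes.

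Coverage in bases gave the same arrangement between groups 4 to 8 and groups 11 to 13. H3K27me3 peaks covered 47.6% of the 4 clusters with their 10 kb flanks in Sham, 39.7% after SNA, 54.0% in Lam and 21.5% after DCA. Over all genes with such flanks the shares were 6.91%, 6.06%, 7.91% and 3.05%. In groups 11 to 13 of Hoxa, Hoxb and Hoxc, 96.1%, 89.5%, 92.3% and 61.9% of bases were covered, and in groups 4 to 8 of these clusters 16.8%, 2.39%, 21.7% and 1.43%. The territories of Hoxd10, Hoxd11, Hoxd12 and Hoxd13 were covered to 100% in Sham, SNA and Lam. In DCA their shares were 46.9%, 36.2%, 61.4% and 58.9%. In groups 1 to 3 of Hoxd the shares varied more between lists, at 13.1%, 58.1%, 73.1% and 19.8%. The territory of Hoxd4, which lies inside the Hoxd3 gene model, was covered to 0% in Sham, 32.7% after SNA, 100% in Lam and 7.3% after DCA. The acetylated Hoxd3 start lies between Hoxd4 and Hoxd8, so Hoxd3 and Hoxd4 do not form a border along the chromosome.

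The acetyl marks covered less sequence. H3K9ac peaks took 8.52%, 12.7%, 8.23% and 20.0% of the 4 clusters in Sham, SNA, Lam and DCA, against 1.91%, 2.95%, 1.7% and 4.34% over all genes. H3K27ac took 9.21%, 13%, 16% and 9.48%, against 1.8%, 2.88%, 3.14% and 1.75%. The clusters hold 39 genes in 572 kb, and all genes with flanks are 21887 in 1288 Mb. The coverage shares over all genes, here and for H3K27me3, are thus not matched for gene density. In Hoxd the H3K9ac shares were 0.3%, 1.01%, 0.8% and 3.1%, and those of H3K27ac 1.81%, 0.881%, 1.96% and 1.73%. The territory with the highest coverage was that of Hoxa9 or Hoxb4 in every H3K9ac and H3K27ac list except H3K9ac in SNA, where it was that of Hoxa7 at 66.6%. H3K9ac covered 50.5%, 63.6%, 47.9% and 76.8% of the territory of Hoxa9 and 46.8%, 55.3%, 49.5% and 88.5% of that of Hoxb4. At Hoxa9 H3K27me3 covered 0% in Sham, SNA and DCA and 44.3% in Lam.

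**Figure D2:**
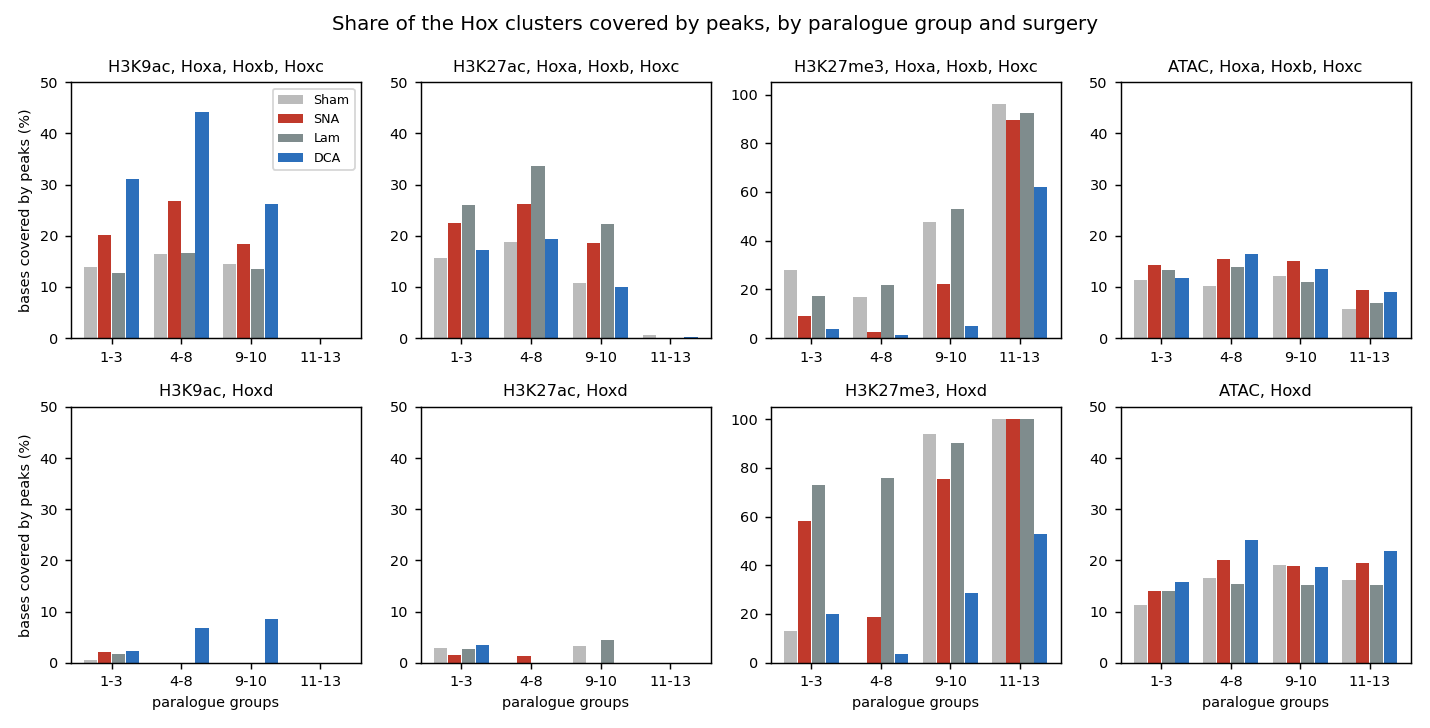
Share of bases covered by peaks (%), by paralogue groups on the horizontal axis, for Hoxa, Hoxb and Hoxc together (top) and Hoxd (bottom), with 1 bar per surgery and no error bars because each bar is 1 pooled list. The H3K27me3 axis runs past 100% and the other axes to 50%. H3K27me3 bars rise to 96.1% in groups 11 to 13 of the top row, where the H3K9ac bars are at 0.

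The widest H3K27me3 peak of each entire list lay in or beside a Hox cluster. In Sham it was an interval of 86349 bp (chr15:102888632-102974980) over Hoxc10, Hoxc11, Hoxc12 and Hoxc13, among 122953 peaks. In SNA it was 65035 bp over Hoxc11, Hoxc12 and Hoxc13, and in Lam 58676 bp (chr2:74642260-74700935) over Hoxd9 to Hoxd13. In DCA it was 27823 bp next to Hoxb13 (chr11:96163621-96191443), reaching into the flank and over no member. Of the Hox H3K27me3 peaks, 6 of 39 in Sham, 5 of 48 in SNA, 7 of 73 in Lam and 4 of 55 in DCA were at least 10 kb wide. These are 15.4%, 10.4%, 9.59% and 7.27%, against 0.688%, 0.321%, 0.415% and 0.117% of the lists. Their height did not stand out: the median fold of the Hox peaks was 1.11, 1.15, 1.2 and 1.14, and that of the lists 1.11, 1.15, 1.19 and 1.18. The widest Sham peak had a fold of 1.02 and a −log10 q of 0.0082, and 1 Hox H3K27me3 peak, at Hoxa6 inside the Hoxa3 gene model in Sham, had a q of at most 0.05. With the lists shortened to 90011 peaks by −log10 p, start-site counts in groups 11 to 13 were 2 in Sham, 6 after SNA, 9 in Lam and 8 after DCA.

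**Figure D3:**
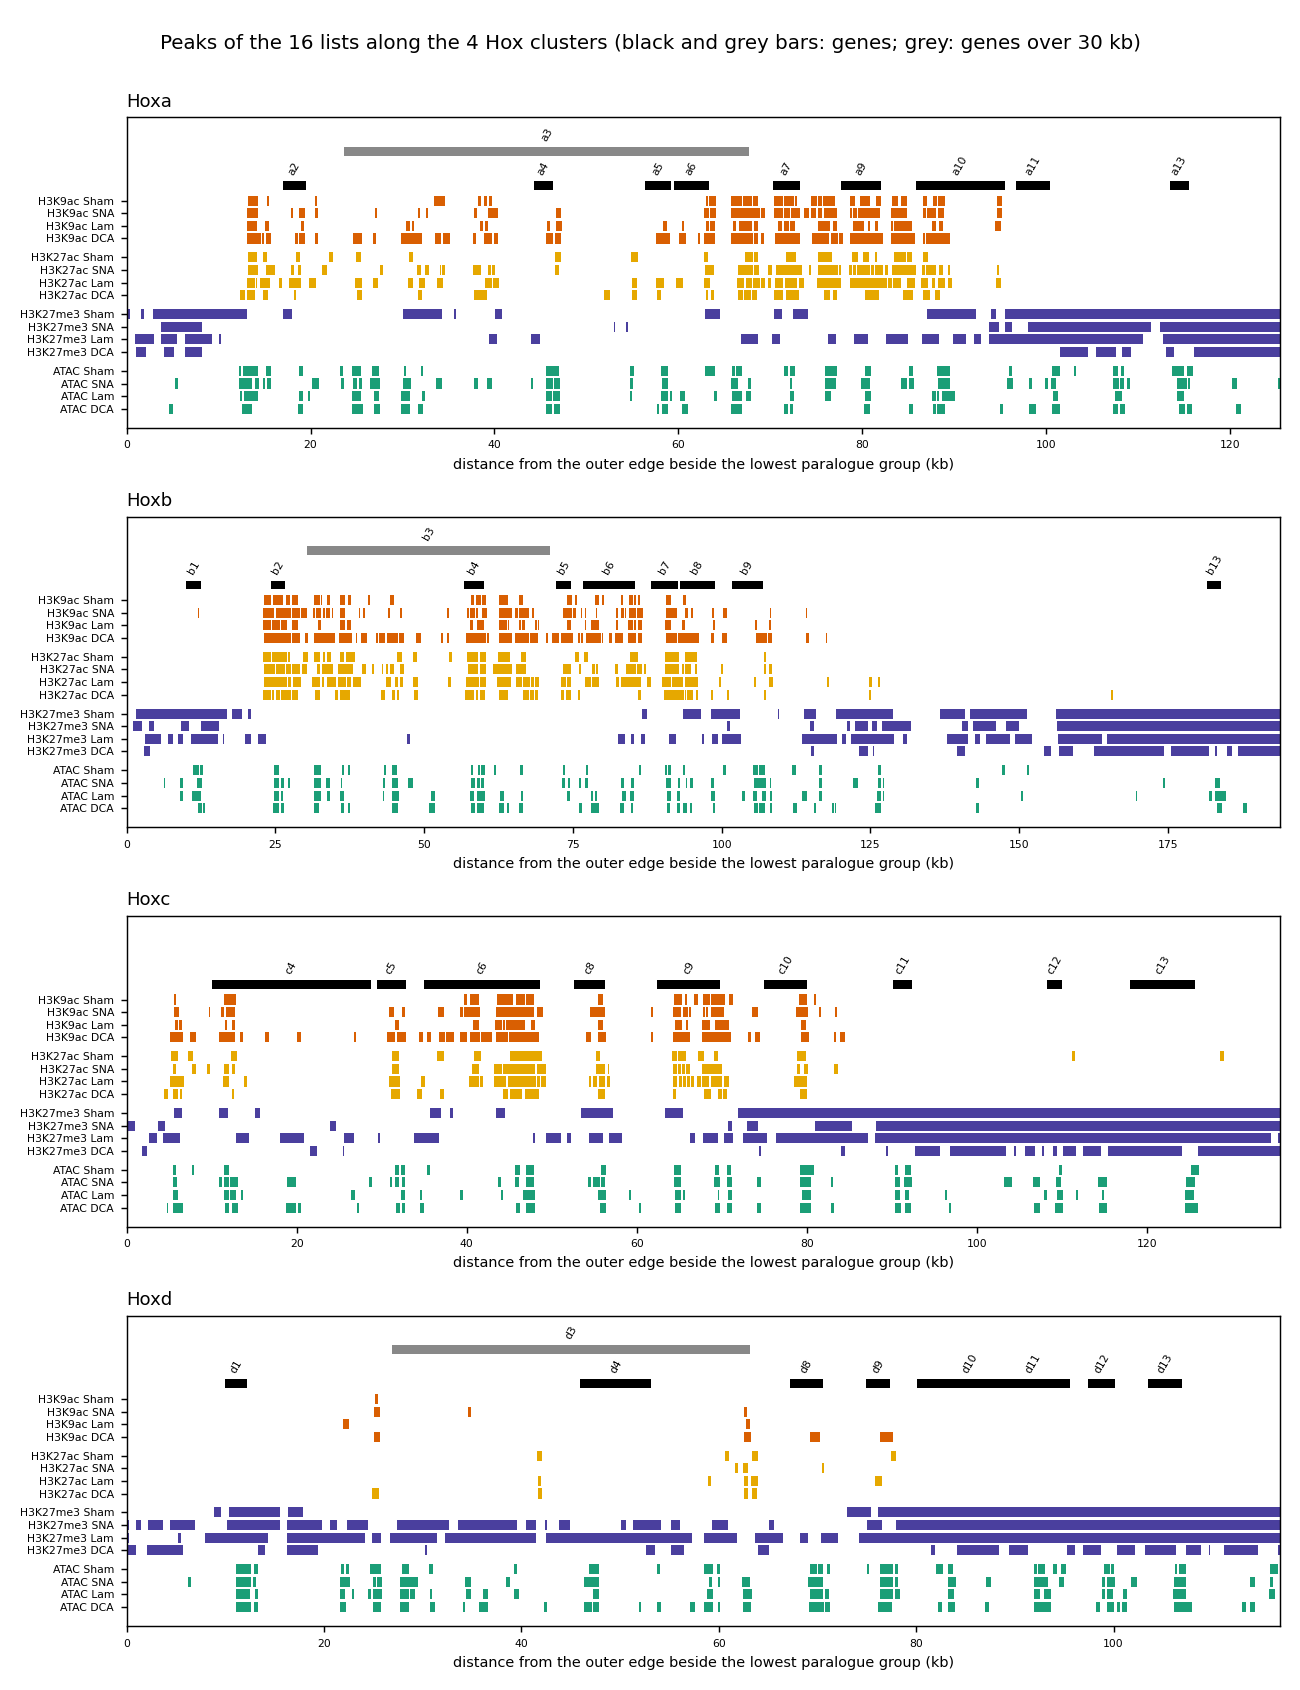
Peaks of the 16 lists along each cluster, with distance in kb from the outer edge beside the lowest paralogue group on the horizontal axis, 1 lane per list, and 38 of the genes as bars above. In Sham, SNA and Lam broad H3K27me3 peaks (purple) cover most of the right-hand end of every cluster, where orange and yellow acetyl peaks are sparse or missing. In DCA the purple peaks there are shorter, the widest of Hoxd being 4319 bp, and Hoxd has ATAC peaks (green) along its whole length.

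At start sites, open chromatin was found in acetylated and in unacetylated parts of the clusters. ATAC peaks were at 33, 34, 35 and 34 of the 39 start sites in Sham, SNA, Lam and DCA, against 68.8%, 70.7%, 69.0% and 70.1% of all genes. All 4 lists had one at 31 members, against 62.1% of all genes, and no list had one at Hoxa9, Hoxb3 or Hoxb8, which are acetylated. In groups 11 to 13 the counts were 8, 9, 9 and 9 of 9, Hoxb13 in Sham being the exception. In bases, however, pooled ATAC coverage of Hoxa, Hoxb and Hoxc was lower in groups 11 to 13 than in other groups in every list. It was 5.61% there in Sham, 9.39% after SNA, 6.85% in Lam and 8.94% after DCA, against 10.1% to 12.2%, 14.2% to 15.4%, 10.9% to 13.8% and 11.7% to 16.5% in the other groups. Hoxb and Hoxc each had this order in every list, but Hoxa had it in Lam alone. In Sham, Hoxa had 14.0% in groups 11 to 13 against 13.7% in groups 1 to 3. In SNA it had 17.1% against 11.6% in groups 4 to 8, and in DCA 15.3% against 11.8% in groups 1 to 3. In Hoxd, groups 11 to 13 had 16.2%, 19.5%, 15.2% and 21.9%, within the range of its other groups. Members with an ATAC peak, an H3K27me3 peak and neither acetyl mark numbered 11, 12, 13 and 10. These are 28.2%, 30.8%, 33.3% and 25.6% of the members, against 8.62%, 7.65%, 10.3% and 3.09% of all genes. Of the ATAC peaks of Hoxa, Hoxb and Hoxc, 54.7% in Sham (41 of 75, 95% Wilson interval 43.4 to 65.4%), 58.4% after SNA, 62.1% in Lam and 65.9% after DCA overlapped a peak of either acetyl mark. In Hoxd the shares were 10.3% (3 of 29, 3.58 to 26.4%), 17.9%, 14.3% and 12.9%, and in the whole lists 16.9%, 19.8%, 18.5% and 21.8%. The Wilson intervals of Hoxd and of the other 3 clusters pooled did not overlap in any surgery. Of the single clusters, Hoxa in SNA (30.1 to 60.3%) overlapped Hoxd (7.88 to 35.6%), and Hoxc in Lam (30.0 to 66.5%) overlapped Hoxd (5.7 to 31.5%). These intervals cover counting error only, and neighbouring peaks are not independent. H3K27me3 lay over 55.2%, 78.6%, 92.9% and 22.6% of the Hoxd ATAC peaks and 40.0%, 28.7%, 49.4% and 12.5% of those of Hoxa, Hoxb and Hoxc, against 15.8%, 13.1%, 23.1% and 5.37% in the whole lists. At Hoxd13, a gene of digit and genital development, the ATAC fold was 2.85 in Sham, 2.85 after SNA, 2.52 in Lam and 2.89 after DCA.

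The microRNAs printed above differed between clusters. Around miR-10a, between Hoxb4 and Hoxb5, H3K9ac peaks within 1 kb numbered 1, 1, 1 and 2 and H3K27ac peaks 1, 2, 1 and 1 in Sham, SNA, Lam and DCA, with no H3K27me3 peak. Around miR-10b, which has the same seed and lies inside Hoxd4, no acetyl or ATAC peak was found in any list, and H3K27me3 was present in Lam. miR-196b, between Hoxa9 and Hoxa10, had both acetyl marks in all lists, and H3K27me3 in Lam alone. The miR-196a copy in Hoxb had no acetyl peak in any list and had H3K27me3 in Sham and Lam. The copy in Hoxc had H3K9ac in SNA and DCA, no H3K27ac, and H3K27me3 in all 4 lists.

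Between surgeries the ratios of Hox peak numbers were on the same side of 1 as those of the whole lists in all 12 comparisons. H3K9ac peaks in the 4 clusters numbered 72 in Sham and 102 in SNA, a ratio of 1.42 against 1.48 for the whole lists. From Lam to DCA the ratio was 1.31 (a net of 25 peaks) against 1.77, and from Sham to Lam, neither of which had an axotomy, 1.12 against 1.01. For H3K27ac the ratios were 1.59 for SNA to Sham against 1.73 in the lists, 0.729 for DCA to Lam against 0.691, and 1.75 for Lam to Sham against 1.54. Lam thus had 46 more H3K27ac peaks in the clusters than Sham, while SNA had 36 more than Sham. For ATAC the ratios were 1.24 against 1.14, 1.03 against 1.04 and 1.11 against 1.03. For H3K27me3 they were 1.23 against 1.15, 0.753 against 0.584, and 1.87 for Lam to Sham against 1.25. With lists cut to equal size the H3K9ac nets were −1 for SNA against Sham and −10 for DCA against Lam, in place of 30 and 25.

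**Figure D4:**
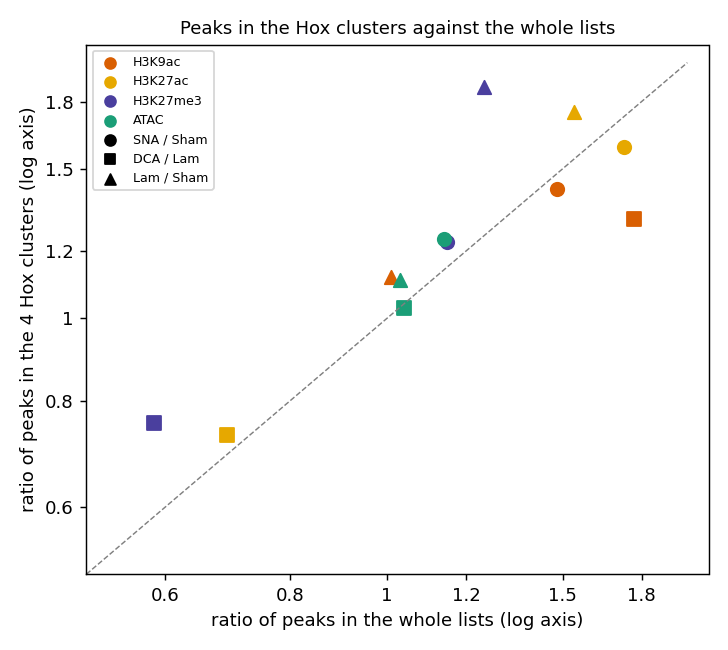
Ratio of peak numbers between surgeries in the 4 Hox clusters (vertical, log axis) against that of the whole lists (horizontal, log axis), 1 point per assay (colour) and comparison (shape), without error bars. The dashed line marks equal ratios. The points farthest from it are H3K27me3 for Lam to Sham (1.87 against 1.25) and H3K9ac for DCA to Lam (1.31 against 1.77).

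H3K27me3 in Hoxd went against the other clusters from Sham to SNA. Coverage of Hoxd was 43.5% in Sham and 65.7% in SNA, and Hoxa, Hoxb and Hoxc had 45.6%, 46.2% and 55.2% in Sham and 26.4%, 31.3% and 41.5% in SNA. Lam, without an axotomy, had 82.4% in Hoxd, so the 2 control surgeries differed by 38.9 percentage points there. In DCA it was 27%. The DCA list of this mark was the shortest and had lower coverage in all 4 clusters than the other lists. No replicate is at hand to judge these differences.

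At single start sites, H3K27me3 differed between lists at more members than the other assays. A peak was present in Lam and missing in DCA at 20 members, 51.3% against 19.2% of all genes, and none had the reverse (2.51%). However, a Lam peak was there to be missed at 82.1% of members against 25.1% of all genes. Of those with a Lam peak, 20 of 32 members and 4195 of 5496 genes lacked it in DCA, a smaller share of the members. Among the 20 were Hoxa11, Hoxb9, Hoxc9, Hoxd8 and Hoxd9. In SNA against Sham, 8 members had one in Sham alone (12.1% of all genes), among them Hoxa6, Hoxa7, Hoxb7, Hoxb8 and Hoxc8, and Hoxd4 had one in SNA alone (6.84%). Of those with a Sham peak, 8 of 25 members and 2651 of 4850 genes lacked it in SNA. Between the control surgeries, 9 members, among them Hoxa9, Hoxd3 and Hoxd4, had one in Lam and not in Sham (11.2%), and Hoxa6 and Hoxa7 the reverse (8.21%).

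For the other assays, 0 to 6 members had a peak in 1 list of a comparison only, in either direction. An H3K9ac peak was present after SNA and missing in Sham at 6 members, Hoxa4, Hoxb1, Hoxb3, Hoxb9, Hoxc5 and Hoxd3, or 15.4% of the members against 5.19% of all genes. None had the reverse, against 3.84% of all genes. The Hoxa4 peak had a fold of 4.05, that at Hoxb9 3.93, Hoxb1 3.52, Hoxb3 3.31, Hoxc5 3.25 and Hoxd3 2.3, the last with a −log10 q of 0.795. However, 4 of these 6, Hoxa4, Hoxb9, Hoxc5 and Hoxd3, together with Hoxa5, also had an H3K9ac peak in Lam and none in Sham (5 members, 5.32% of all genes), and 0 had the reverse (4.36%). The SNA and Lam comparisons share the Sham list. Hoxb1 and Hoxb3 were the members with the peak in SNA and in neither control. After DCA and not in Lam, H3K9ac was at Hoxb3, Hoxb8, Hoxd8 and Hoxd9 (9.43% of all genes), and 0 members had the reverse (0.571%). At Hoxd8 and Hoxd9 the folds were 4.6 and 4.83.

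For H3K27ac, Hoxa10 and Hoxd8 had a start-site peak in SNA and not in Sham (13.6% of all genes), and Hoxd9 had one in Sham and not in SNA (2.39%). In DCA against Lam, 0 members had a peak in DCA alone (2.4%) and 5 had one in Lam alone, Hoxa2, Hoxa5, Hoxa10, Hoxb3 and Hoxd9 (10.4%). In Lam against Sham, Hoxa5 and Hoxa10 had one in Lam alone (13%) and Hoxa4 in Sham alone (2.13%). For ATAC, Hoxb5, Hoxb13 and Hoxd3 had a peak in SNA and not in Sham (5.17%), and Hoxa6 and Hoxd4 the reverse (3.23%). Hoxb5, Hoxb13 and Hoxd3 also had one in Lam and not in Sham (4.38%), with Hoxd4 the reverse (4.17%). In DCA against Lam, Hoxd4 had one in DCA alone (4.6%), and Hoxa6 and Hoxb5 in Lam alone (3.5%).

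Genes that act with the Hox clusters or adjoin them were counted in the same way. All 5 genes of Polycomb repressive complex 2 that were listed (Ezh1, Ezh2, Eed, Suz12 and Jarid2) had H3K9ac and ATAC start-site peaks in all 4 lists and no H3K27me3 peak in any. The 5 listed H3K27 demethylase and trithorax genes (Kdm6a, Kdm6b, Kmt2a, Kmt2b and Men1) likewise had H3K9ac in all lists and no H3K27me3. Of the 9 TALE cofactor genes, whose proteins bind DNA together with HOX proteins, 7, 7, 7 and 9 had H3K9ac in Sham, SNA, Lam and DCA, and 4, 2, 2 and 0 had H3K27me3. The Cdx genes, which activate Hox genes in the embryo, had H3K27me3 at 3, 2, 3 and 1 of 3 and no H3K27ac in any list. Of 8 genes beside the clusters, 5, 5, 5 and 6 had H3K9ac. Evx1 and Evx2 among them, the homeobox genes that adjoin Hoxa13 and Hoxd13, had neither acetyl mark in any list, as was found for groups 11 to 13 of the Hox genes.

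The tissue label was checked with marker lists. Of 10 sensory neuron markers 9 were in the gene table. They had ATAC start-site peaks at 8, 9, 9 and 9 in Sham, SNA, Lam and DCA, but H3K9ac at 0, 1, 1 and 2 and H3K27ac at 1, 2, 2 and 2. H3K27me3 start-site peaks were at 6, 5, 7 and 2 of these 9 neuronal genes, so this mark was not limited to genes of other tissues. Avil, Isl1, Pou4f1, Scn9a, Scn10a and Tac1 had no H3K9ac start-site peak in any list. Of 8 satellite glia and Schwann cell markers, 6, 7, 7 and 7 had H3K9ac and 6, 8, 8 and 5 had H3K27ac. Fibroblast markers had H3K9ac at 2 to 4 of 5, endothelial ones at 2 to 3 of 4 and macrophage ones at 0 to 1 of 6. All 12 markers of spinal motor neurons, forebrain and skeletal muscle lacked both acetyl marks in all lists. Which cell types the acetylated Hox genes come from was not tested.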

How the data were processed

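The 60 samples were placed in groups by their labels. Per the labels, the authors deposited 1 peak list per assay and surgery, with replicates pooled. The files use mm10, per the submitters' processing notes. The aligner, peak caller and settings are not given in the sources used here, and depth is unknown. Each deposited list gives a display score, a fold enrichment (a linear ratio) and −log10 p and −log10 q values of the authors' caller. These were used within a list only, and the score was not used. Repeated ATAC intervals were collapsed. Peak names show that each list is part of a longer ranked one, of which 34.2% to 53.7% of the 5000 highest ranks are present for H3K27me3 and at least 86.1% for the other assays.

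Overlap was 1 bp, the start-site window 1 kb and the flank 10 kb. Python 3.11.15, pandas 2.3.3 and statsmodels 0.14.6 were used, and the counting was tested on simulated data. The members and lists were chosen with earlier results of these data known. Single peaks were named as the strongest of each cluster and list, those at border members, and those present in 1 list of a comparison only. Results were repeated with q limits, equal list sizes, a 5 kb window, either gene end and no flank. The values of 1 member and 1 marker are not reported singly here.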

Additional observations from a re-analysis of the deposited data

Results flagged for a closer look

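The net number of H3K27ac peaks in the 4 Hox clusters was 36 for SNA minus Sham and −29 for DCA minus Lam, a difference of 65. The comparisons had opposite signs, but with lists of equal size the nets were 2 and 3, so the opposite direction was lost. The net number of H3K27me3 peaks was 9 and −18, a difference of 27. The bases these peaks covered were instead lower in both comparisons, with differences of −7.9 and −32.5 percentage points, and with q of at most 0.05 the nets were −1 and 0. Neither difference was tested, since each value comes from 1 pooled list per surgery. The whole lists moved the same way as the nets, with ratios of 1.73 and 0.691 for H3K27ac and 1.15 and 0.584 for H3K27me3.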

How the results depend on the processing

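No paired analysis was possible because the deposited lists pool the replicates, and leaving out single replicates was not run for the same reason. Of 100 alternative values, 49 kept within a factor of 1.5 for counts, or within a 95% Wilson interval over bases for coverage. The others follow, and the cause was not tested except where fewer peaks were counted by construction.

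Start-site counts in all 4 lists with −log10 q of at least 5 were 3 for H3K9ac, 10 for H3K27ac, 0 for H3K27me3 and 8 for ATAC. H3K27me3 counts were also 0 with q of at most 0.05, 1 with equal list sizes, 16 with a 5 kb window and, chosen after seeing the data, 17 without the DCA list. Also chosen after seeing the data, a 5 kb window gave 2 acetylated genes in groups 11 to 13, and equal list sizes gave 2 in Sham with H3K27me3.

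Coverage in Sham with q of at most 0.05 was 6.99% for H3K9ac, 9.11% for H3K27ac, 0.292% for H3K27me3 and 9.48% for ATAC. With −log10 q of at least 5 it was 1.71%, 7.23%, 0% and 3.31%, and without flanks 9.86%, 10.3%, 43.6% and 11.7%. Equal list sizes gave 21.4% for H3K27me3.

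Net H3K9ac peaks for SNA minus Sham were 9 with −log10 q of at least 5 and −1 with equal list sizes. For DCA minus Lam they were 44 and −10, and for Lam minus Sham 21 with q of at most 0.05 and 16 with −log10 q of at least 5. Net H3K27ac peaks for SNA minus Sham were 3 with −log10 q of at least 5 and 2 with equal sizes. For DCA minus Lam they were 3 with equal sizes, and for Lam minus Sham 20 and 12. Net H3K27me3 peaks with q of at most 0.05 were −1, 0 and −1 for SNA minus Sham, DCA minus Lam and Lam minus Sham, and 0 for each with −log10 q of at least 5. Equal sizes gave 4 and −5 for the injury comparisons, and no flank 4 for SNA minus Sham. Net ATAC peaks for SNA minus Sham were 13 with −log10 q of at least 5 and 15 with equal sizes. For DCA minus Lam they were 13 with q of at most 0.05, −1 with −log10 q of at least 5, 2 with equal sizes and 0 without flanks. For Lam minus Sham they were 5 with q of at most 0.05 and 6 with −log10 q of at least 5.

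The H3K27me3 results rest on peaks with low −log10 q, and the DCA list of this mark is the shortest. The number of reads behind a peak is unknown.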
